A study of Mus musculus with 8 samples.

Results

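The genes described here encode interleukin-6 (IL-6), interleukin-12 (IL-12) and their closest relatives, and were followed across mouse peritoneal macrophages with and without the Mediator subunit MED1. They were chosen by symbol: Il6, Lif, Osm, Il12a, Il12b, Il23a, Il27, Ebi3, Il6ra and Il6st. All 10 were found, each as 1 locus, among 23735 loci of the deposited table, and all 10 passed the filter of at least 1 RPKM in at least 2 libraries. RPKM scales reads to transcript length and to the mapped reads of the library, so genes can be compared within a library. It does not adjust for differences in RNA composition between libraries, so comparisons between libraries were repeated with other scalings.

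RNA was sequenced from macrophages of C57BL/6J mice aged 8 weeks, in 4 groups of 2 libraries, lettered A and B. The groups were MED1-/- macrophages (KO) with lipopolysaccharide (LPS) at 50 ng/mL for 6 h, KO untreated, control macrophages (WT in the labels) with LPS at the same dose and time, and WT untreated. Mice of the WT groups carried floxed Med1 (MED1fl/fl) and those of the KO groups had the gene deleted in macrophages (MED1ΔMac). The sources used here name no Cre driver and do not say whether mice were pooled or whether A and B came from separate animals. The p-values therefore measure the spread between these libraries, which may be technical.

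IL-6 is a secreted signal that binds the receptor chain encoded by Il6ra, and the pair then engages gp130, the signalling chain encoded by Il6st. Gp130 is shared with leukaemia inhibitory factor (Lif), oncostatin M (Osm) and interleukin-27, and it signals through JAK kinases to STAT3. The IL-12 family works as pairs of subunits: Il12a and Il12b form IL-12, Il23a and Il12b form IL-23, and Il27 and Ebi3 form IL-27. Macrophages release many of these cytokines after LPS engages Toll-like receptor 4, and several of them, IL-12, IL-23, IL-6 and IL-27 among them, direct the differentiation of T helper cells.

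Promoter sequences from RefSeq (build GRCm38.p6) were found for 7 of the 10 genes. Not matched were Osm, Il23a and Il27. The 250 bases before the start of 4 of them are shown because they span the range of LPS responses described next: Il6 and Il12b rose most among the genes that passed the test in both genotypes, Ebi3 had the smallest positive change and Il6ra had lower values with LPS. Each reads 5′ to 3′ on the strand of the gene, and capitals mark matches on either strand. The motifs searched were the NF-kB consensus, given by name, the C/EBP motif spelled TTNNGNAA, the AP-1 motif spelled TGANTCA, the STAT motif spelled TTCNNNGAA and the TATA box spelled TATAAA. The Il6 window is chr5:30012864-30013113 (plus strand), the Il12b window chr11:44399813-44400062 (plus), the Ebi3 window chr17:55952373-55952622 (plus) and the Il6ra window chr3:89913197-89913446 (minus).
Il6: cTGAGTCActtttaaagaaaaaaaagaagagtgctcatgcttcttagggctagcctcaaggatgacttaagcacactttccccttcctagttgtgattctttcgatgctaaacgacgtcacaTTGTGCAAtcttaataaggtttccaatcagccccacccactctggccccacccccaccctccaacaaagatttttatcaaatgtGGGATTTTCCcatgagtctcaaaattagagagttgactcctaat
Il12b: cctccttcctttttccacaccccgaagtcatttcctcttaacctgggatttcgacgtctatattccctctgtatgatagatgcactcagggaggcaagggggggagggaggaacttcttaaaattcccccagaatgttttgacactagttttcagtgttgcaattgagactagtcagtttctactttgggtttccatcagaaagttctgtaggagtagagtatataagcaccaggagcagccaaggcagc
Ebi3: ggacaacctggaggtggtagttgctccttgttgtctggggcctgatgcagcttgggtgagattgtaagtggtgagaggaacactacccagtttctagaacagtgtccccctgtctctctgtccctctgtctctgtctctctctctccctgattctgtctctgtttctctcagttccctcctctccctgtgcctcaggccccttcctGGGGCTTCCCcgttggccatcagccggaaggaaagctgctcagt
Il6ra: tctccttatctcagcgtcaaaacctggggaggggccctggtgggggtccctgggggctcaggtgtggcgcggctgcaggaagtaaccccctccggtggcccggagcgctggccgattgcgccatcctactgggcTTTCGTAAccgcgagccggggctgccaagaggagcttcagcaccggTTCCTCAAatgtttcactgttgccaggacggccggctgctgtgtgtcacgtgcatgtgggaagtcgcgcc

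The Il6 window held an NF-kB match, GGGATTTTCC, 44 to 35 bases before the start. It also held a C/EBP match, TTGTGCAA, 128 to 121 bases before it, and an AP-1 match, TGAGTCA, at its far end. The Ebi3 window held 1 NF-kB match, GGGGCTTCCC, also 44 to 35 bases before the start. The Il6ra window held 2 stretches that matched C/EBP, of which TTTCGTAA matched on both strands, and the Il12b window held no match to these letters. Of the windows not printed, that of Lif held 1 AP-1 match, TGACTCA, and those of Il12a (2 starts) and Il6st held none. Over all 32851 promoter windows of the same length, 3.9% held the NF-kB consensus, 36.8% C/EBP, 6.75% AP-1, 7.02% STAT and 12.4% TATA. A match describes letters only and was not tested as a binding site.

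The smallest steps between low RPKM values put the depth at 7.01 to 14.4 M mapped reads per library, and 10192 to 11027 loci reached 1 RPKM. With LPS, the B library lay above the A library for all 8 cytokine genes (all but Il6ra and Il6st) in both genotypes. Summed markers of some other cell types also split by letter in all groups. The summed level of 5 mast cell markers was 59.9 to 131 RPKM in B libraries and 0.103 to 17.2 RPKM in A libraries, with Mcpt4 and Fcer1a at 0 in both KO A libraries. That of 4 T cell markers was 6.10 to 32.5 RPKM in B libraries and 3.17 to 5.96 RPKM in A libraries, and that of 6 dendritic cell markers 11.3 to 29.0 RPKM in B libraries and 10.1 to 11.04 RPKM in A libraries. Ccr7 was the largest part of the dendritic cell sum except in WT untreated B, where Clec9a was. Cd209a was higher in A than in B in WT untreated (3.97 against 0.474 RPKM) and in both LPS groups, but lower in KO untreated (1.79 against 4.44 RPKM). Zbtb46 in KO untreated and Flt3 in WT with LPS were also higher in A. The summed level of 3 eosinophil markers was 0.414 to 2.39 RPKM in B libraries and 0.0371 to 0.290 RPKM in A libraries, and that of 2 NK cell markers 0.600 to 1.37 RPKM in B libraries and 0 to 0.0675 RPKM in A libraries. Of the eosinophil markers, Epx and Prg2 were at 0 outside KO untreated B, so elsewhere that sum was Siglec5 alone. Neutrophil markers summed to 69.4 to 121 RPKM with LPS and 39.8 to 69.7 RPKM untreated, nearly all of it S100a8. Retnlg went the other way in B libraries, at 0.534 and 1.94 RPKM with LPS (KO, WT) against 7.45 and 5.77 RPKM untreated. The 5 markers of large peritoneal macrophages summed to 80.3 to 102 RPKM with LPS and 117 to 706 RPKM untreated, where Alox15 was the largest part. Gata6, Icam2 and Alox15 were lower in the LPS libraries. Timd4 was higher with LPS in A libraries (20.2 against 1.13 RPKM in KO, 25.1 against 2.47 RPKM in WT), and Selp was higher with LPS in WT. Their part in the results was not tested. Macrophage markers were abundant in every library, with Emr1 (F4/80) at 277 to 709 RPKM and Csf1r at 249 to 948 RPKM. B cell markers were present throughout (378 to 1586 RPKM over 4 genes). In such bulk samples, fewer cells of a type and less RNA per cell cannot be told apart. Med1 itself read 24.4 and 20.3 RPKM in KO with LPS, 17.6 and 23.4 RPKM in KO untreated, 24.7 and 21.6 RPKM in WT with LPS and 21.7 and 24.8 RPKM in WT untreated, over a locus whose deleted exons no source used here gives, so these values do not check the deletion.

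The cytokine genes had higher values with LPS in both genotypes. Relative to untreated libraries, all 8 cytokine genes were higher in both LPS libraries without overlap, in KO and in WT, where 15.1% of 11272 loci tested did so in KO and 18.2% in WT. Il12b, Il23a and Lif were under 1 RPKM in every untreated library and passed the filter only through LPS libraries. For them the filter itself favoured higher values with LPS, so they are described and do not add to the count as evidence. The remaining cytokine genes also reached 1 RPKM in untreated libraries. In the fit over all loci, 5 of the 10 genes rose in KO (Il6, Il12a, Il12b, Il27 and Osm) and 0 fell, against a background of 3.31% of loci up and 3.31% down. In WT, 4 rose (Il6, Il12a, Il12b and Osm) and 0 fell, against 3.17% up and 3.14% down. Over all loci that was 373 up and 373 down in KO and 357 up and 354 down in WT, and median-ratio scaling gave 456 up and 299 down in KO and 517 up and 338 down in WT. The median log2 change of the 10 genes was 3.83 in KO and 3.14 in WT, and that of all loci was -0.28 in KO and -0.25 in WT. Both counts of genes that rose include Il12b, and the medians include Il12b, Il23a and Lif. These genes passed the filter only through LPS libraries and do not add to those figures as evidence. The same holds wherever they are called below. Adjusted p-values come from limma with Benjamini-Hochberg adjustment over the 11272 loci, a gene is called at an adjusted p under 0.05, and changes are differences in log2(RPKM + 1), which understate those of genes near 0. The 4 groups share 1 estimate of the spread per gene, so an SE does not follow the spread of the groups compared.

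Libraries of the same letter deviated together across groups, and more genes passed with the letter as a block. In KO, 9 of the 10 were then called, 8 up and 1 down, against 5.25% of loci up and 9.04% down. In WT, 7 were called, all up, against 5.71% of loci up and 10.4% down. The calls without the block depended on single libraries. In KO, leaving out any 1 of the 4 KO libraries gave 0 of the 10, with 0.152 to 1.94% of all loci up and 0.0268 to 1.64% down. Leaving out 1 WT LPS library gave 7 in KO, 6 up and Il6ra down, with 4.32% of loci up and 9.45% down without A and 4.29% up and 9.58% down without B. In WT, leaving out WT untreated A, WT untreated B or WT LPS B gave 0, with 0.0535 to 0.615% of loci up and 0.00892 to 0.205% down. Leaving out WT LPS A gave 8 in WT, 7 up and Il6ra down, with 4.62% of loci up and 15.4% down. Where a library is left out, its group has 1 library, which is assumed to vary as the other groups do. The 8 cytokine genes kept a positive change without any 1 library.

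**Figure D1:**
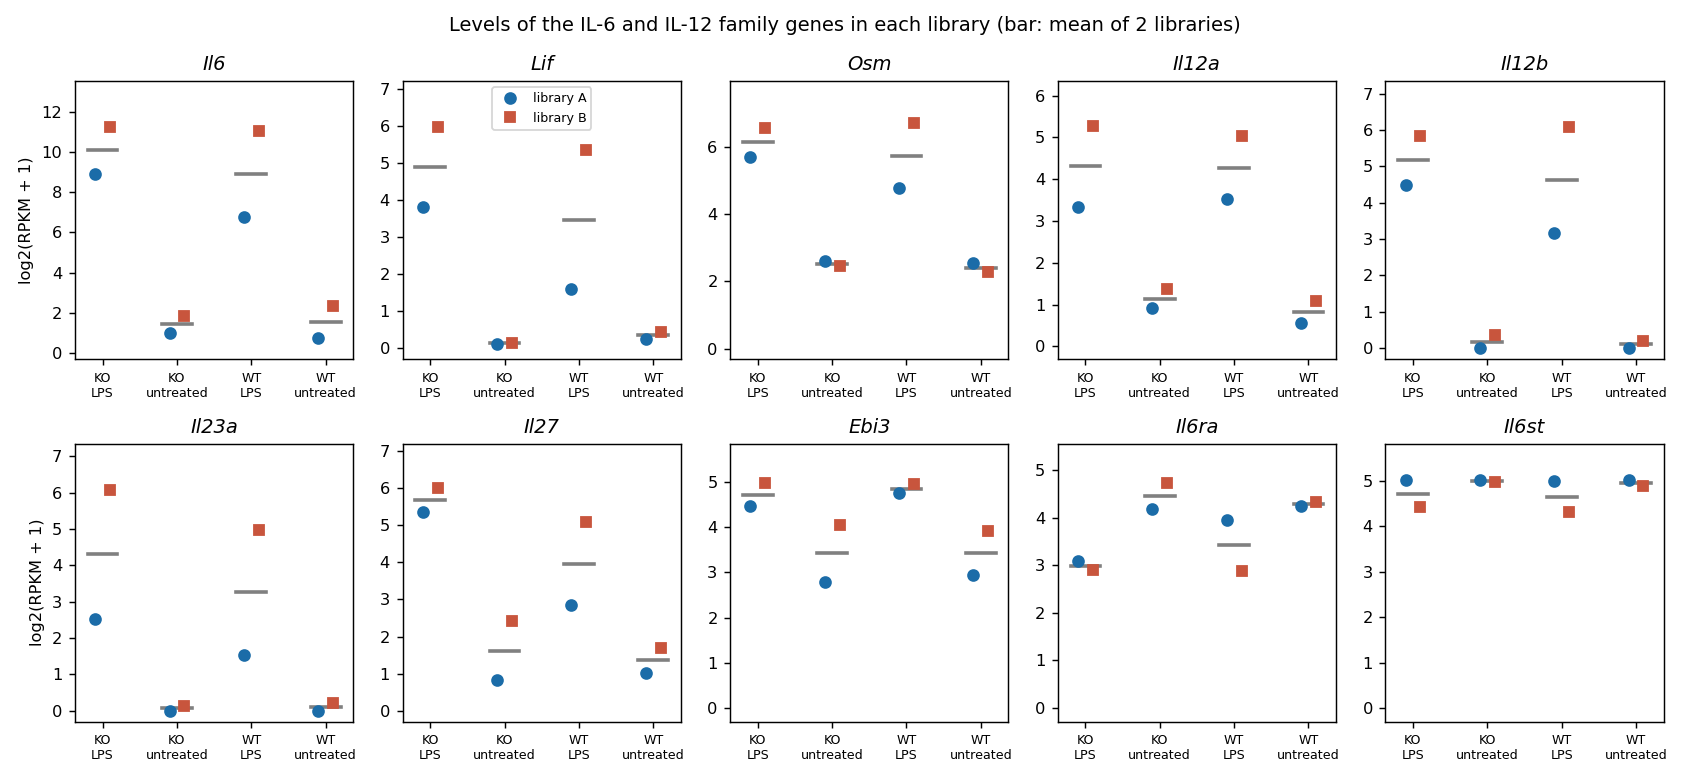
Level of each gene, as log2(RPKM + 1) on the vertical axis, in KO and WT macrophages with LPS or untreated. Circles are A libraries, squares are B libraries, bars are the mean of the 2, and each panel has its own scale. All 8 cytokine genes sit higher in the LPS libraries than in the untreated libraries of the same genotype, while Il6ra sits lower.

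Among the gp130 cytokines, Il6 (mm9 chromosome 5, 30339701 to 30346508, plus strand) had the largest response of the 10 genes. It stood at 484 and 2423 RPKM in the KO LPS libraries (A, then B, here and below), against 1.01 and 2.60 RPKM in KO untreated. In WT it stood at 106 and 2144 RPKM with LPS, against 0.704 and 4.12 RPKM untreated. The groups lay far apart in both genotypes, although the LPS libraries of a genotype differed by 5.01 times in KO and 20.2 times in WT. The log2 change was 8.65 in KO (SE 1.37, adjusted p = 0.02) and 7.34 in WT (SE 1.37, adjusted p = 0.0281). Counted from the most positive change, it ranked 2 among 11272 loci in KO and 3 in WT. The untreated values rest on an estimated 15.9 and 21.5 reads in KO and 6.80 and 47.6 reads in WT.

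Osm, which encodes oncostatin M (chromosome 11, 4136423 to 4141029, plus strand), was already present without LPS. It read 50.6 and 93.1 RPKM in KO with LPS, against 5.06 and 4.47 RPKM in KO untreated, and 26.4 and 102 RPKM in WT with LPS, against 4.87 and 3.82 RPKM in WT untreated. Untreated libraries of both genotypes lay close together, and the LPS groups lay above them. The log2 change was 3.60 in KO (SE 0.58, adjusted p = 0.0204) and 3.32 in WT (SE 0.58, adjusted p = 0.024).

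Lif, which encodes leukaemia inhibitory factor, is the next annotated gene downstream of Osm (chromosome 11, 4157560 to 4172517, plus strand), with 16530 bases between them. Unlike Osm it was close to 0 without LPS, with an estimated 2.92 to 14.6 reads in the untreated libraries. It read 13.1 and 61.7 RPKM in KO with LPS, against 0.0838 and 0.0952 RPKM in KO untreated, and 1.996 and 39.2 RPKM in WT with LPS, against 0.191 and 0.342 RPKM in WT untreated. The LPS and untreated groups did not overlap, but WT with LPS spread 19.6 times between its libraries. The log2 change of 4.77 in KO (SE 1.14, adjusted p = 0.0527) and 3.12 in WT (SE 1.14, adjusted p = 0.128) did not pass. With the letter as a block it passed in both, at adjusted p = 0.0151 in KO and 0.0478 in WT.

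The 2 subunits of IL-12 rose in both genotypes. Il12b encodes p40, the chain that IL-12 and IL-23 share (chromosome 11, 44213565 to 44227535, plus strand). It read 21.5 and 56.1 RPKM in KO with LPS, against 0 and 0.277 RPKM in KO untreated, and 8.05 and 66.7 RPKM in WT with LPS, against 0 and 0.149 RPKM in WT untreated. Both untreated A libraries listed it at 0, which at their depth allows up to 0.107 RPKM in KO and 0.174 RPKM in WT (3 reads, counting error only). The log2 change was 4.99 in KO (SE 0.86, adjusted p = 0.0242) and 4.53 in WT (SE 0.86, adjusted p = 0.0296).

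Il12a encodes p35, the other chain of IL-12 (chromosome 3, 68494566 to 68502469, plus strand). It read 9.12 and 37.9 RPKM in KO with LPS, against 0.896 and 1.58 RPKM in KO untreated, and 10.5 and 31.6 RPKM in WT with LPS, against 0.485 and 1.14 RPKM in WT untreated. The LPS levels of the genotypes interleaved, with both KO values outside the WT pair on either side. Its log2 change was 3.17 in KO (SE 0.69, adjusted p = 0.0416) and 3.44 in WT (SE 0.69, adjusted p = 0.0337). The call in KO ended with median-ratio scaling (adjusted p = 0.0532) and without WT untreated A (0.0639) or B (0.0644).

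Il23a, which encodes the p19 chain of IL-23 (chromosome 10, 127733196 to 127735140, minus strand), spread 14.1 times between the KO LPS libraries and 16.1 times between the WT LPS libraries. It read 4.76 and 67.0 RPKM in KO with LPS, against 0 and 0.105 RPKM in KO untreated, and 1.91 and 30.7 RPKM in WT with LPS, against 0 and 0.150 RPKM in WT untreated. The untreated B values stand for an estimated 1.08 reads in KO and 2.17 reads in WT. The change of 4.23 in KO (SE 1.31, adjusted p = 0.0918) and 3.16 in WT (SE 1.31, adjusted p = 0.161) did not pass, and with the letter as a block it passed in KO (adjusted p = 0.0271) but gave 0.0572 in WT. With a pseudocount of 0.1 in place of 1 it passed in KO as well (log2 change 6.98, adjusted p = 0.0444), as did Lif (7.23, adjusted p = 0.0277).

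Of the IL-27 subunits, Il27 rose in KO and Ebi3 had the smallest positive change of the cytokine genes. Il27, which encodes the p28 chain (chromosome 7, 133732524 to 133738455, minus strand), read 39.9 and 63.2 RPKM in KO with LPS, against 0.762 and 4.33 RPKM in KO untreated. In WT it read 6.18 and 32.9 RPKM with LPS, against 1.03 and 2.24 RPKM untreated. Both KO LPS values lay above both WT LPS values. The log2 change was 4.06 in KO (SE 0.78, adjusted p = 0.0303) and 2.60 in WT (SE 0.78, adjusted p = 0.0842, or 0.00916 with the letter as a block). Of its annotated exons, 103 bases overlap Apobr on the opposite strand, which read 35.6 to 66.6 RPKM. The counting is not stated to use strand, so reads from that stretch cannot be assigned to either gene.

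Ebi3 (chromosome 17, 56092046 to 56096444, plus strand) was the most abundant of these cytokine genes without LPS. It read 20.9 and 30.3 RPKM in KO with LPS, against 5.93 and 15.5 RPKM in KO untreated, and 25.8 and 29.7 RPKM in WT with LPS, against 6.65 and 13.98 RPKM in WT untreated. The groups did not overlap and the genotypes interleaved at both treatments. The change of 1.29 in KO (SE 0.47, adjusted p = 0.127, or 0.0267 with the letter as a block) was close to that of 1.42 in WT (SE 0.47, adjusted p = 0.103, or 0.0178 with the block). A lincRNA on the opposite strand, Gm16712, overlaps 270 bases of its exons, with the same limit as for Il27.

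The receptor chains had lower values or no detectable change with LPS. Il6ra, the IL-6 binding chain (chromosome 3, 89673246 to 89717084, minus strand), read 7.46 and 6.43 RPKM in KO with LPS, against 17.2 and 25.8 RPKM in KO untreated. In WT it read 14.6 and 6.32 RPKM with LPS, against 18.0 and 19.2 RPKM untreated. It was the only one of the 10 genes to lie lower without overlap in both genotypes, as did 48% of all loci in KO and 45.9% in WT. The log2 change was -1.48 in KO (SE 0.37, adjusted p = 0.057, or 0.0402 with the letter as a block) and -0.87 in WT (SE 0.37, adjusted p = 0.165). Quantile normalization gave -1.24 in KO (adjusted p = 0.0477), and the call in KO was also made without WT LPS A (adjusted p = 0.02) or B (0.0196). In WT the change was -1.42 without WT LPS A (adjusted p = 0.0248, with 1 library left in that group) and -0.33 without WT LPS B.

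Il6st, which encodes gp130 (chromosome 13, 113265216 to 113297068, plus strand), had the smallest LPS change of the 10. It read 31.2 and 20.5 RPKM in KO with LPS, against 31.3 and 30.4 RPKM in KO untreated, and 30.7 and 18.8 RPKM in WT with LPS, against 31.5 and 28.7 RPKM in WT untreated. The A library kept its level under LPS in each genotype and the B library was lower. The change of -0.28 in KO (SE 0.29, 95% interval -0.95 to 0.40, adjusted p = 0.535) and -0.31 in WT (SE 0.29, 95% interval -0.98 to 0.36, adjusted p = 0.497) was near the median of all loci, and median-ratio scaling gave 0.02 in KO and -0.03 in WT.

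**Figure D2:**
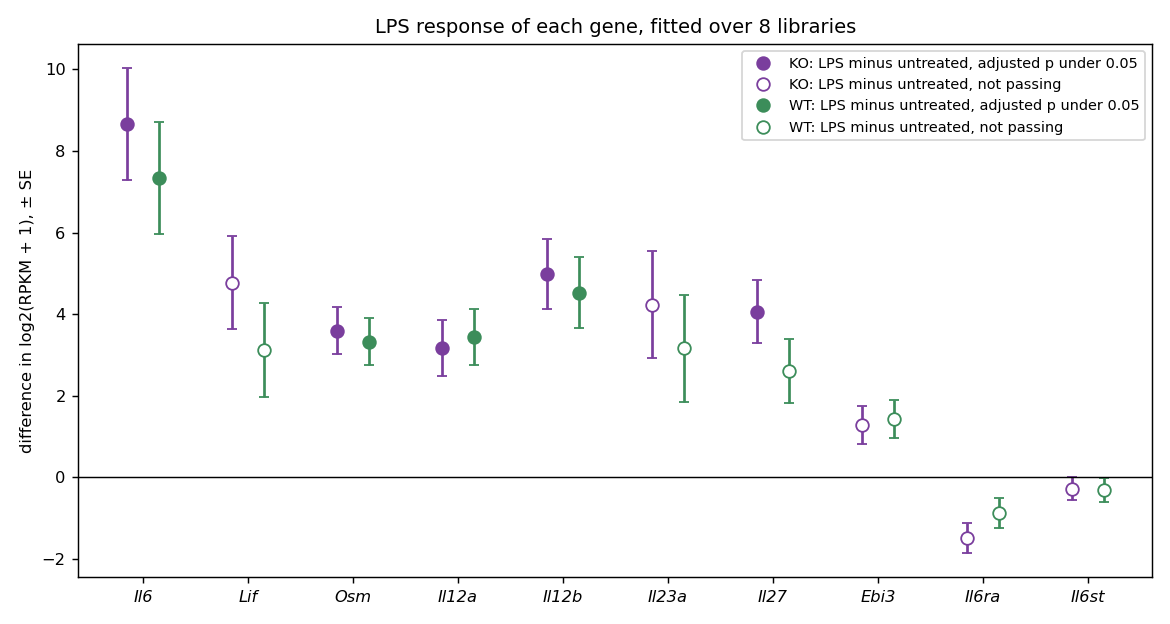
LPS response of each gene as the difference in log2(RPKM + 1) between LPS and untreated libraries, with its standard error, in KO and WT macrophages. Filled points passed an adjusted p under 0.05 and open points did not. Il6 has the largest change in both genotypes (8.65 in KO and 7.34 in WT), and Il6ra is the lowest.

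LPS reordered the levels of the genes. With LPS, Il6 came first in KO at 1453 ± 1371 RPKM and in WT at 1125 ± 1441 RPKM (SD, n = 2), and its libraries did not overlap those of Osm, the next gene, in either genotype. In KO the genes from Osm to Il12a overlapped step by step, and Il6ra came last at 6.95 ± 0.73 RPKM, below Il12a without overlap. In WT every neighbouring pair below Osm overlapped, and Il6ra again came last (10.5 ± 5.85 RPKM). Without LPS the receptor chains came first, Il6st at 30.8 ± 0.69 RPKM in KO and 30.1 ± 2.01 RPKM in WT and Il6ra at 21.5 ± 6.08 RPKM in KO and 18.6 ± 0.87 RPKM in WT. Ebi3 and Osm followed, each apart from its upper neighbour in both genotypes. Il6, Il27 and Il12a overlapped among themselves, and Lif, Il12b and Il23a took the last places.

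Because the IL-12 family signals as pairs of chains, the ratio of partner transcripts was taken in each LPS library, as a description. The ratio of Il12b to Il12a RPKM was 2.36 and 1.48 in KO (A and B) and 0.768 and 2.11 in WT, so that p40 transcript exceeded p35 in all LPS libraries except WT A. In untreated libraries it was 0 and 0.175 in KO and 0 and 0.131 in WT, with p35 the more abundant. The ratio of Il12b to Il23a was 4.52 and 0.837 in KO and 4.21 and 2.17 in WT. That of Ebi3 to Il27 was 0.524 and 0.479 in KO, below the 4.17 and 0.903 in WT, whereas without LPS Ebi3 exceeded Il27 in every library (7.79 and 3.58 in KO, 6.44 and 6.23 in WT). For the IL-6 receptor, Il6st over Il6ra was 4.18 and 3.18 in KO with LPS, above the 2.11 and 2.98 in WT with LPS, with the B libraries close together. Untreated, that ratio was 1.82 and 1.18 in KO and 1.76 and 1.49 in WT. These ratios compare transcripts and not secreted protein.

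**Figure D3:**
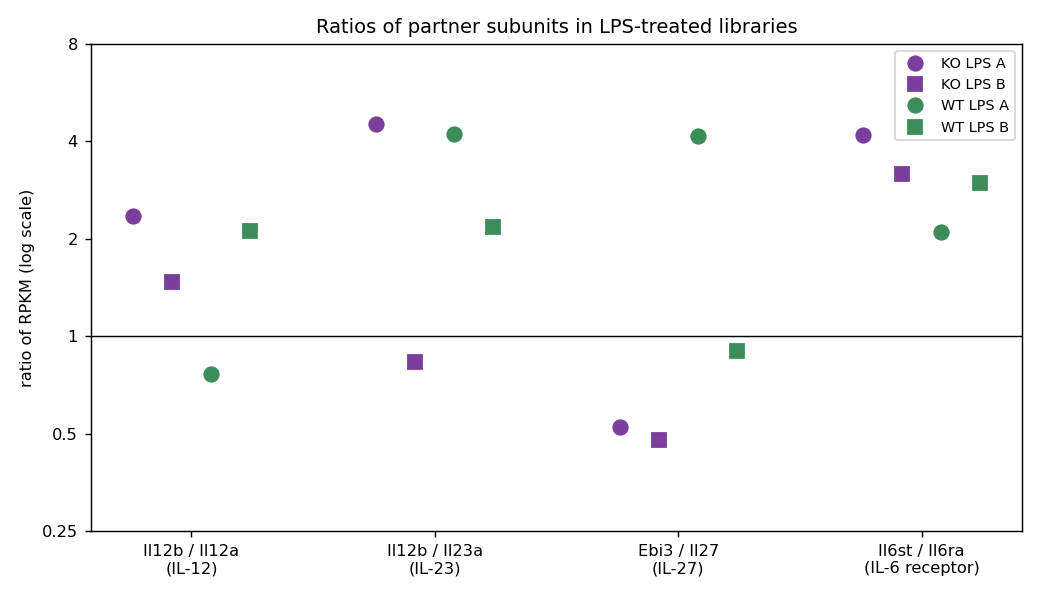
Ratio of the RPKM of partner chains in each LPS-treated library, on a log scale, with KO libraries before WT libraries, circles for A and squares for B. The Ebi3 to Il27 ratio is 0.524 and 0.479 in KO and 4.17 and 0.903 in WT.

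Whether loss of MED1 changes these genes was asked in 4 ways, and none of the 10 passed in any of them by limma. KO minus WT with LPS called 0.00887% of loci, KO minus WT untreated 0.0266%, the average over treatments 0.0355% and the interaction 0.0355%. At an unadjusted p under 0.05 there were 0 of the 10 genes in each. Among all loci there were 498 with LPS, 94 untreated, 472 in the average and 184 in the interaction. All adjusted p-values of the 10 genes were 0.999 or 1. These contrasts share their libraries with the LPS responses above.

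With LPS, the largest KO minus WT differences among the 10 were those of Il27 (1.71, SE 0.78, 95% interval -0.11 to 3.54, unadjusted p = 0.0616), Lif (1.44, SE 1.14) and Il6 (1.17, SE 1.37, 95% interval -2.04 to 4.39). Counted from the most positive difference they ranked 32, 48 and 97 among 11272 loci, and Il23a (1.04) ranked 147. The median of the 10 genes was 0.46, where that of all loci was 0.05. Without WT LPS A these medians were -0.50 for the 10 genes and 0.21 for all loci, and without KO LPS B they were -0.09 for the 10 genes and 0.12 for all loci. Il27 was the 1 gene whose KO LPS libraries both lay above both WT LPS libraries, which 18.7% of all loci did. Without WT LPS A its difference was 0.59, while the differences turned to -0.99 for Il6, -0.92 for Il12b, -0.72 for Il12a, -0.68 for Il23a, -0.56 for Osm and -0.44 for Lif, and to 0.11 for Il6ra. Without KO LPS B they were below 0 for Il12a (-0.93), Il23a (-0.74), Il12b (-0.14) and Osm (-0.04). Without WT LPS B they were 3.33 for Il6, 3.31 for Lif and 2.83 for Il27. For Il27, the adjusted p was 0.516 to 1 over the alternatives, and with the letter as a block it was 0.516. The intervals are wide: for Il12b the difference of 0.53 had a 95% interval of -1.48 to 2.55.

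The differences with LPS were larger between the A libraries for Il27, Lif, Il6, Il12b and Osm. Within A they were 2.51 for Il27, 2.23 for Lif, 2.17 for Il6, 1.32 for Il12b, 0.98 for Il23a and 0.91 for Osm. Within B they were 0.92 for Il27, 0.64 for Lif, 0.18 for Il6, -0.25 for Il12b, 1.10 for Il23a and -0.13 for Osm. Il27, Lif, Il6, Il23a and Il6st were higher in KO within both letters, the last by 0.02 and 0.12. Il12b and Osm were higher in KO within A and lower within B, and Il12a, Ebi3 and Il6ra did the reverse. Other markers also differed between the LPS groups. The sum of 4 B cell markers was 1332 and 918 RPKM in KO with LPS and 576 and 378 RPKM in WT with LPS, and that of 6 macrophage markers, mostly Lyz2, was 8344 and 8312 RPKM in KO with LPS and 21227 and 18613 RPKM in WT with LPS. Their part in these differences was not tested.

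**Figure D4:**
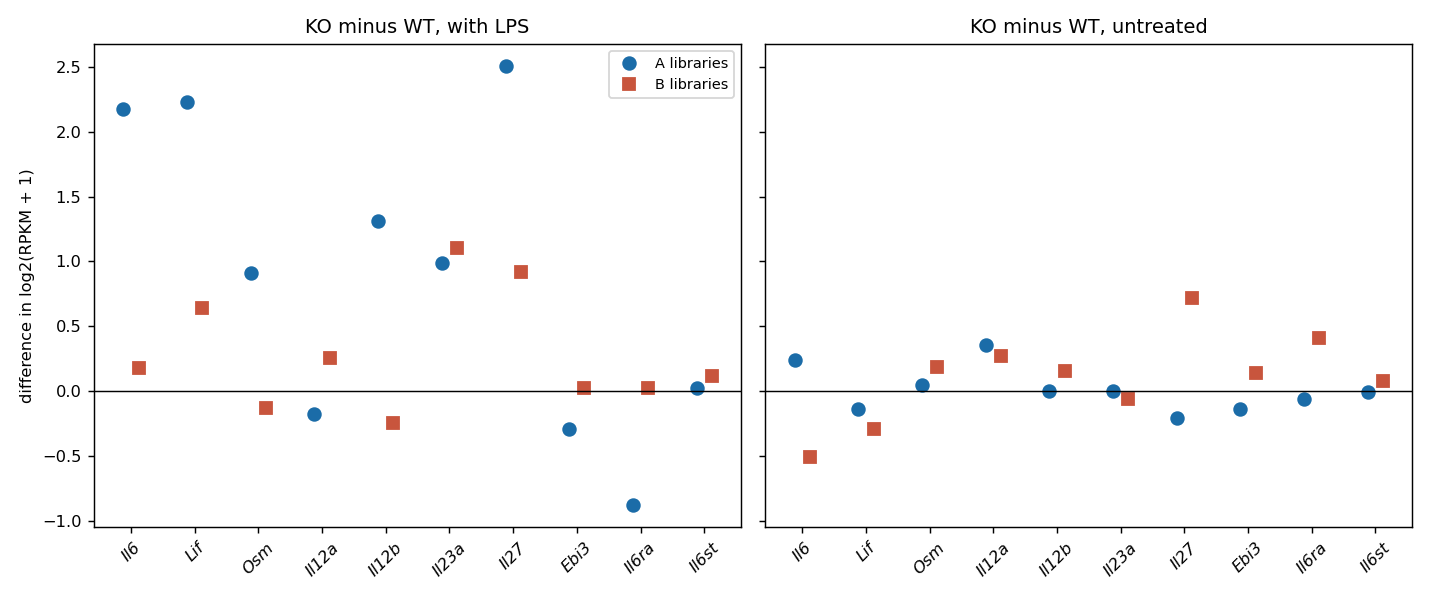
KO minus WT difference in log2(RPKM + 1) for each gene, taken within the A libraries (circles) and within the B libraries (squares), with LPS on the left and untreated on the right. With LPS, Il6, Lif and Il27 differ by over 2 within A and by less than 1 within B, and all untreated differences are within 1 of zero.

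Without LPS the differences ran from -0.21 (Lif) to 0.31 (Il12a). Lif was the 1 gene whose KO values both lay below both WT values (0.0838 and 0.0952 RPKM in KO untreated against 0.191 and 0.342 RPKM in WT untreated), as did 5.86% of all loci, with a log2 difference of -0.21 (SE 1.14). That SE is shared by all groups and rests mostly on the LPS libraries, where Lif spread far more than untreated. This limits what the untreated test of Lif could detect. Il6 differed by -0.14 (SE 1.37) and Il12a by 0.31 (SE 0.69). Subtracting the WT response to LPS from the KO response gave an interaction of 1.65 for Lif (SE 1.62, 95% interval -2.14 to 5.44), 1.46 for Il27 (SE 1.10), 1.31 for Il6 (SE 1.94) and -0.61 for Il6ra (SE 0.52). Without WT LPS A it was -0.22 for Lif, 0.34 for Il27, -0.85 for Il6 and -0.06 for Il6ra.

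Other genes of the pathway were counted in 5 lists. Over all loci, LPS gave 3.31% up and 3.31% down in KO and 3.17% up and 3.14% down in WT. The median change of all loci was -0.28 in KO and -0.25 in WT. Of 13 further ligands and receptors of the family, 8 passed the filter and 5 did not. None of the 8 was called in KO with LPS, and 1 rose in WT. That was Lifr, the LIF receptor chain, at 5.45 and 7.13 RPKM in WT with LPS against 1.84 and 0.995 RPKM in WT untreated (log2 1.60, adjusted p = 0.0441), with 0.49 in KO (adjusted p = 0.377). The oncostatin M receptor Osmr changed by 0.59 in KO (adjusted p = 0.234) and 1.20 in WT (adjusted p = 0.061), and the gp130 ligand Clcf1 by 0.44 in KO and 0.15 in WT. Cntf shares its locus with Zfp91 in the table, so its -0.48 in KO and -0.45 in WT cannot be assigned to it. The median over the 8 was 0.33 in KO and 0.16 in WT.

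Below the receptors, 3 of 14 signalling genes rose in each genotype and 0 fell, with a median of 0.02 in KO and 0.37 in WT. Of all loci, 3.31% rose in KO and 3.17% in WT, with medians of -0.28 in KO and -0.25 in WT. They were Socs3, the inhibitor that binds gp130 (3.10 in KO, adjusted p = 0.0126, and 3.43 in WT, adjusted p = 0.0107), Socs1, an inhibitor of JAK kinases (3.39 in KO and 4.85 in WT), and the kinase Jak2 (2.15 in KO and 2.76 in WT). Of 12 STAT3 targets, 5 rose in KO (Socs3, Junb, Pim1, Cebpd and Il4ra) and 4 in WT (Socs3, Pim1, Il4ra and Timp1) and 0 fell, with medians of 1.10 in KO and 1.07 in WT. Beside Socs3, the changes of largest size in KO were those of the kinase Pim1 (1.83 in KO, adjusted p = 0.0199, and 1.77 in WT, adjusted p = 0.0222), the transcription factor Cebpb (1.29 in KO, adjusted p = 0.0539, and 0.56 in WT, adjusted p = 0.27) and the AP-1 subunit Fos (-2.06 in KO, adjusted p = 0.171, and -1.09 in WT, adjusted p = 0.433).

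Of 18 regulators of Il6 and Il12b transcription and mRNA stability, 17 passed the filter, 4 rose in KO (Nfkbiz, Nfkb1, Cebpd and Zc3h12a) and 2 in WT (Nfkb1 and Zc3h12a), and 0 fell. The medians were 0.78 in KO and 0.65 in WT, against -0.28 and -0.25 over all loci, of which 3.31% rose in KO and 3.17% in WT. Nfkb1, the p50 precursor of NF-kB, rose by 2.07 in KO (adjusted p = 0.0223) and by 2.202 in WT (adjusted p = 0.0205). Zc3h12a, the RNase that degrades Il6 mRNA, rose by 2.30 in KO (adjusted p = 0.025) and 2.19 in WT (adjusted p = 0.0275). Nfkbiz, an NF-kB cofactor needed for Il6 induction in mouse macrophages, rose by 2.53 in KO (adjusted p = 0.038), with a WT value of 2.01 (adjusted p = 0.0651). Irf1 had 1.37 in KO (adjusted p = 0.295) and 2.05 in WT (adjusted p = 0.152).

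Of 5 genes that act in shedding of the IL-6 receptor, 1 rose in each genotype, where 3.31% of all loci rose in KO and 3.17% in WT. The medians of the 5 genes, -0.09 in KO and -0.18 in WT, lay above those of all loci (-0.28 in KO and -0.25 in WT). The gene that rose was Rhbdf2, a partner of the sheddase ADAM17, at 62.4 and 68.8 RPKM in KO with LPS against 27.3 and 25.7 RPKM in KO untreated, and 71.9 and 82.6 RPKM in WT with LPS against 29.0 and 32.1 RPKM in WT untreated. Its change was 1.27 in KO (adjusted p = 0.0153) and 1.31 in WT (adjusted p = 0.0152). The sheddases Adam10 (-0.53 in KO and -0.22 in WT) and Adam17 (-0.15 in KO and -0.59 in WT) and Rhbdf1 (0.41 in KO and -0.18 in WT) did not pass. No gene of the 5 lists was called by limma in any of the 4 contrasts between genotypes. With LPS, 498 of 11272 loci had an unadjusted p under 0.05. Those of the lists were Osmr (-0.84), Gab1 (-1.09), Il4ra (-0.60), Hp (-2.53) and Timp1 (-2.21), lower in KO, and Il11ra1 (1.01) and Rel (0.64), higher in KO. Untreated it was Cebpb, where 94 of all loci did so, and in the interaction Gab1 and Timp1, where 184 did. In the average they were Osmr, Gab1, Cebpb, Hp, Timp1 and Rel, where 472 loci did.

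Loci whose pattern was most like that of 3 of the genes were found by Pearson's r of log2(RPKM + 1) over the 8 libraries, among 8258 loci with 1 ordinary gene name and a mean of at least 5 RPKM in some group. For Il6 these were Csf3 (r = 0.998), Csf2 (0.997), Il12b (0.996), Ereg (0.995) and Tpbg (0.995). For Il12b they were Areg (0.997), Tnfaip3 (0.997), Tpbg (0.997), Osm (0.996) and Il6 (0.996). For Il6ra they were Pbx2 (0.993), Zbtb34 (0.992), Slc25a45 (0.991), Qser1 (0.991) and Zfp36l2 (0.990). The points share treatment and letter, and the values are a description. Csf3, which encodes the growth factor G-CSF, read 187 and 1142 RPKM in KO with LPS, 0.440 and 0.417 RPKM in KO untreated, 50.5 and 905 RPKM in WT with LPS and 0 and 1.496 RPKM in WT untreated.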

How the data were processed

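The deposited table gives RPKM values that the authors computed, per the submitters' processing notes with TopHat2 2.0.14 and Cufflinks 2.2.1 on mm9. Its 24192 lines hold 23735 loci, each used once, and 11272 had at least 1 RPKM in at least 2 libraries. Differences were fitted on log2(RPKM + 1) with limma 3.58.1 in R 4.3.3, with 1 mean per group over 8 libraries, trended moderated variances and two-sided tests, and checked on simulated data. Other tools were Python 3.11.15, numpy 2.4.6, pandas 2.3.3 and matplotlib 3.10.9.

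No read counts were used. Depth came from the most common ratio of low values between libraries and from 488 genes with 1 transcript in GENCODE vM1 on mm9 (quartiles 13.7 and 14.9 M reads for KO untreated A), and reads of a gene were estimated on its longest transcript. The limits that a value of 0 allows cover counting error only, and the 95% intervals of differences come from limma and rest on the spread between libraries.

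The letters were taken to pair libraries from the data alone: deviations from group means correlated by letter at 0.20 to 0.41 across loci in the 6 pairs of groups. All 10 genes were named by rule. Of each list up to 4 genes with the largest LPS change in KO were named, except for a result that is not reported here, and other genes named there were chosen after their values were seen. The genes and lists were chosen with earlier results of these data known. Alternatives were another pseudocount, other filters and scalings, the letter as a block and leaving out each library. Values within each letter were added after the data were seen.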

Additional observations from a re-analysis of the deposited data

How the results depend on the processing

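Of the 10 genes, 5 were called in the LPS response of KO and 4 in that of WT. With no filter on low values the numbers were 0 and 0, where limma tested 23735 loci and called 36 up and 13 down in KO and 33 up and 23 down in WT, against 373 up and 373 down in KO and 357 up and 354 down in WT with the filter. With the letter as a replicate block they were 9 and 7, with 592 loci up and 1019 down in KO and 644 up and 1174 down in WT. Leaving out 1 library gave 0 to 7 in KO and 0 to 8 in WT, with 17 to 485 loci up and 3 to 1073 down in KO and 6 to 519 up and 1 to 1725 down in WT; the cause was not tested. A pseudocount of 0.1, a filter at 5 RPKM, median-ratio scaling and quantile normalization gave 4 to 7 in KO and 4 in WT. Of all loci tested, these settings called 3.08 to 4.19% up and 2.65 to 3.97% down in KO. In WT they called 3.02 to 4.59% up and 2.77 to 4.28% down. The 7 in KO came with the pseudocount of 0.1 and include Il23a and Lif, which passed the filter only through LPS libraries. Median-ratio scaling gave a median LPS change over all loci of -0.02 in KO, against -0.28 without it. No called change of the 10 genes turned its direction under the alternatives run. In the 4 contrasts between genotypes, 0 of the 10 genes were called under every alternative run; the block changed no call there. With 2 libraries a group, standard errors on the log2 scale ran over the 10 genes from 0.29 to 1.37 for KO minus WT at either treatment, from 0.20 to 0.97 for the average and from 0.41 to 1.94 for the interaction, which limits what could be detected. Genes near 0 without LPS (Il12b, Il23a and Lif) rest on few reads there.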

Other observations

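Il12a and Ebi3, whose products also pair as IL-35, both had higher values with LPS but by different amounts. The ratio of Ebi3 to Il12a RPKM was 2.29 and 0.797 in KO with LPS (A and B), against 6.63 and 9.78 in KO untreated, and 2.46 and 0.940 in WT with LPS, against 13.7 and 12.3 in WT untreated. Across the 8 libraries Il6ra ran opposite to the cytokine genes, with Pearson's r from -0.66 with Ebi3 to -0.96 with Lif, points that share treatment and letter. Il6st did so too, from -0.64 with Ebi3 to -0.88 with Il23a. Lower values with LPS were common, since 48% of all loci lay lower without overlap in KO and 45.9% in WT. Receptor chains for IL-12 and IL-23 were low throughout, with Il12rb1 at 0.307 to 1.40 RPKM, Il12rb2 at 0.279 to 1.11 RPKM and Il23r at 0 to 0.476 RPKM. The IL-27 receptor Il27ra was at 4.22 to 14.1 RPKM.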
